A study of Mus musculus with 8 samples.

Results

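Lysosomes are the acidic compartments in which cells break down engulfed and worn-out material. Soluble hydrolases in the lumen cut glycans, lipids and proteins, a rotary proton pump (the V-ATPase) keeps the lumen acidic, and glycosylated membrane proteins line the organelle and carry ions, cystine and other products across its wall. Microglia, the resident macrophages of the brain, use this system to digest synapses, axon fragments and dead cells that they have taken up.

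The 38 genes described here encode lysosomal hydrolases and their helper proteins, lysosomal membrane proteins and subunits of the proton pump. They were chosen by name, with cathepsins left out, and all 38 were found by their Ensembl identifiers among the 26062 genes of the count table. RNA was sequenced of cells from the lateral geniculate nucleus (LGN), a thalamic target of the optic nerves, captured on magnetic beads against CD11b, an integrin subunit carried by microglia and other myeloid cells. All mice were wild type male C57BL/6J animals aged 2 to 3 months. There were 2 libraries from uninjured mice, 3 from mice taken 1 day after both optic nerves were crushed and 3 from mice taken 3 days after crush. The labels name no sham operation and do not say whether each library came from 1 animal or several, so the p-values below speak only of differences between these libraries and may rest on technical spread.

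Many lysosomal genes carry a CACGTG element (an E-box) in their promoters, the core of the sequence bound by the MiT/TFE transcription factors, such as TFEB and TFE3. RefSeq promoter windows on GRCm38.p6, from 250 bases before to 50 bases after a start, were matched by symbol for 35 of the 38 genes. Searched on both strands, CACGTG was present in 10 of the 35 genes (28.6%). It was present in 8.09% of 27025 genes in the promoter table, and in 24.4% of 82 genes from the other lysosomal lists described below. TCACGTG, which contains CACGTG, was present in 10 of the 35 (28.6%), against 4.29% of all genes and 23.2% of the 82. The 38 genes were thus not alone among lysosomal genes in this. Among the 38, the 10 with TCACGTG were Gaa, Gla, Glb1, Naglu, Sgsh, Lamp1, Mcoln1, Cln3, Atp6v0d1 and Atp6v1a.

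The stretches around the element are shown for 5 of these genes, with CACGTG in capitals, because they differ in the number of copies and because the genes differed at 3 days against uninjured mice, where Naglu rose and Mcoln1 had a negative value that was not called. Lamp1 (chr8:13159076-13159160, plus strand) has 4 copies, which begin 61, 45, 28 and 15 bases before the start. Mcoln1 (chr8:3500424-3500503, plus strand) and Gla (chrX:134601170-134601255, minus strand) have 2 copies each. Naglu (chr11:101069997-101070050, plus strand) and Glb1 (chr9:114401006-114401059, plus strand) have 1 each.
Lamp1: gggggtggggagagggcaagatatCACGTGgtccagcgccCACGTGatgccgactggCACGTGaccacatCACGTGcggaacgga
Mcoln1: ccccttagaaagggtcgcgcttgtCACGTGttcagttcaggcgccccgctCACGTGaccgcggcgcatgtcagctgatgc
Gla: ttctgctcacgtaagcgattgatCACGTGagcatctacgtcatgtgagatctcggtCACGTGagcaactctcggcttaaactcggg
Naglu: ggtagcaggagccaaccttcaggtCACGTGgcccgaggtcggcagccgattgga
Glb1: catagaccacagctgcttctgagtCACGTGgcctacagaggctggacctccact

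The windows of Gusb and Cd68, the genes with the largest rises at 3 days, do not hold these letters. The 60 bases before their starts are shown for comparison (Gusb at chr5:130003050-130003109 and Cd68 at chr11:69666171-69666230, both on the minus strand).
Gusb: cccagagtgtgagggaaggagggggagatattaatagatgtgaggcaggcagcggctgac
Cd68: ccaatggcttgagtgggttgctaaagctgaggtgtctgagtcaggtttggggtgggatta

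Library totals ran from 12700098 to 17994861 counts, and the smallest count of any of the 38 genes in a library was 39. Mitochondrially encoded genes took 13.6% to 30.3% of counts, most at 3 days. All 12 microglial markers, such as P2ry12, Tmem119 and Cx3cr1, had counts in every group, and their summed level was 8389 to 11120 CPM without injury, 11979 to 15032 CPM at 1 day and 8282 to 9917 CPM at 3 days (CPM, counts per 1000000 of the TMM-scaled library total). The preparations also held RNA of other cells. In the same order, 12 endothelial markers summed to 1604 to 1743, 757 to 927 and 1397 to 1473 CPM, 9 mural markers to 1350 to 1593, 733 to 916 and 1054 to 1203 CPM, and 8 choroid plexus and ependyma markers to 523 to 5507, 1.09 to 56.7 and 623 to 3568 CPM, with Folr1 at 0 at 1 day. The 8 border macrophage markers summed to 616 to 742, 561 to 802 and 407 to 510 CPM, the 8 monocyte markers to 629 to 652, 308 to 378 and 408 to 586 CPM, and the 8 neutrophil markers to 37.9 to 44.2, 50.1 to 137 and 17.9 to 35.4 CPM. Sums over 10 astrocyte, 10 oligodendrocyte and 9 neuronal markers were at most 159, 119 and 21.3 CPM in any library. Each level below is that of the whole preparation, in which a change in the number of cells of a type cannot be told apart from a change in RNA per cell.

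Between genes, levels were compared only per length, as the mean CPM over all 8 libraries per kb of annotated exon. Most of the lysosomal genes were abundant: 21 of 38 lay at or above percentile 90 of 17334 tested genes with a known length, and the median percentile was 93.4. Cd68, a heavily glycosylated protein of macrophage lysosomes, had the highest level at 460.4 CPM per kb. Psap, the precursor of the saposins that present sphingolipids to their hydrolases, followed with 294 CPM per kb, then Grn, the precursor of the granulins, with 266 and Lamp1, a major glycoprotein of the lysosomal membrane, with 239. The step to Tpp1, a tripeptidyl peptidase, at 89.8 CPM per kb was the widest in this order by ratio among the 6 most abundant. At the low end were Galc, the galactosylceramidase that degrades myelin lipids, at 2.31 CPM per kb and Sgsh, the sulfamidase of heparan sulfate, at 1.37 CPM per kb. Galc has 14879 bases of annotated exon, which lowers its level per length.

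**Figure D1:**
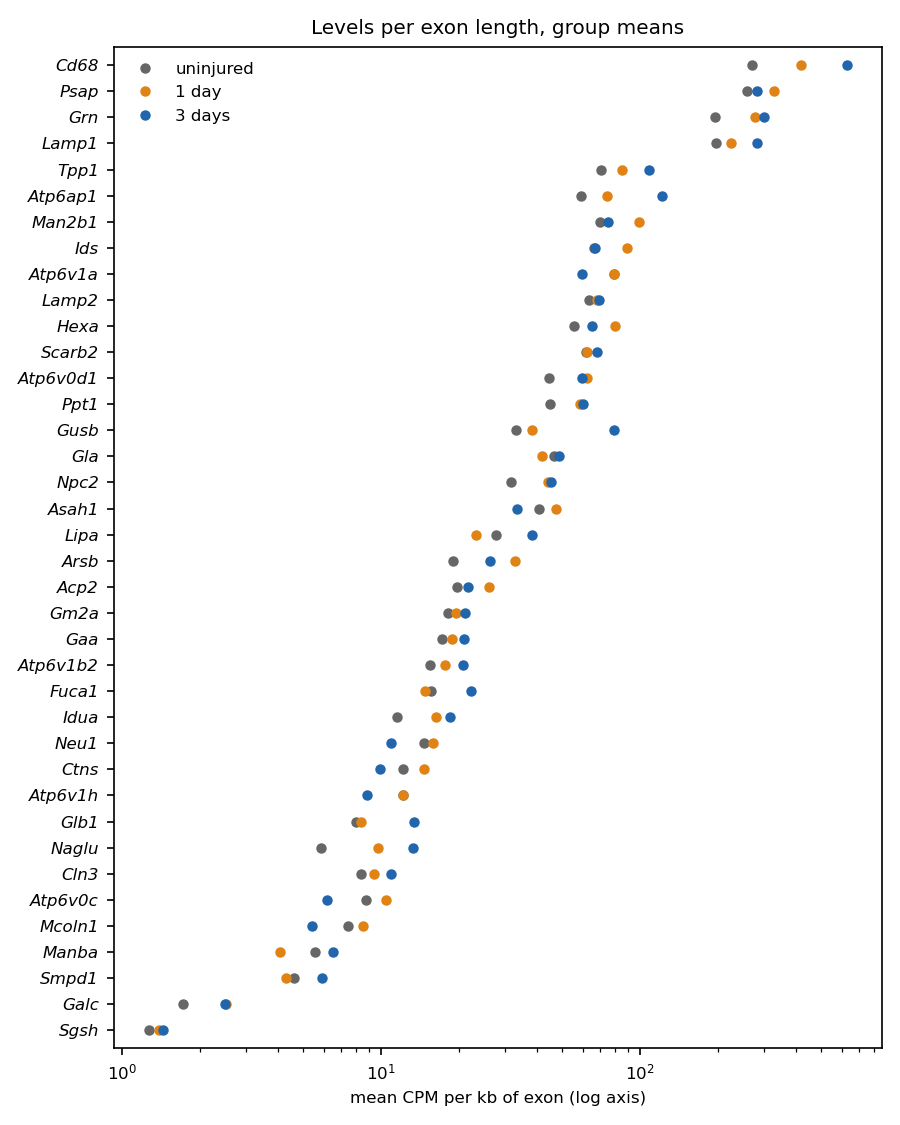
Mean level of each of the 38 genes in CPM per kb of annotated exon (horizontal log axis) in uninjured mice (n = 2), 1 day after crush (n = 3) and 3 days after crush (n = 3). Cd68, Psap, Grn and Lamp1 lie above all others, and Galc and Sgsh lie lowest.

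The comparison of 1 day after crush with uninjured mice addressed the early response to injury. Most of the 38 genes had somewhat higher levels at 1 day, but none passed the test. Cd68 came closest: the 2 uninjured libraries had 301 and 376 CPM, and the 3 libraries at 1 day 529.7, 585 and 465 CPM. All 3 of the 1 day libraries were above both uninjured ones, by 1.55-fold on average (log2 fold change 0.64, SE 0.16, edgeR adjusted p = 0.0537).

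Arsb, the sulfatase that works on dermatan and chondroitin sulfate, had the largest difference at 1 day, with 114 ± 19.8 CPM in uninjured mice (SD, n = 2) against 197 ± 45.1 CPM (SD, n = 3). Its libraries did not overlap (log2 fold change 0.79, SE 0.22, edgeR adjusted p = 0.0865). Grn had 588 and 766 CPM without injury and 1016, 939 and 945 CPM at 1 day, again without overlap (0.51, SE 0.15, edgeR adjusted p = 0.0977). Naglu, which removes N-acetylglucosamine from heparan sulfate, had 15.8 and 15.3 CPM and then 27.4, 29.9 and 20.3 CPM (0.74, SE 0.29, edgeR adjusted p = 0.247). In Naglu, too, every 1 day library was above both uninjured ones.

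At 1 day 0 of the 38 genes were called higher by edgeR (0.610% of all 17390 tested genes were) and 0 lower (1.16% of all were). At an unadjusted p under 0.05, 9 were higher and 0 lower, and DESeq2 called 2 as higher, Arsb and Cd68. Over all genes and both directions, DESeq2 called 909, where the main edgeR fit called 308. The share of all genes under the unadjusted threshold is not reported here, nor for the later comparisons. The fitted change was positive in 32 of 38 genes (84.2%, against 54.0% of all), with a median log2 fold change of 0.21 against 0.06 over all tested genes. This median was 0.42 without control replicate 2, 0.11 without day 1 replicate 2 and 0.096, with 26 positive values, when libraries were scaled by size alone. In 12 genes all 1 day libraries were above the uninjured ones (14.3% of all genes), and in 0 all were below (15.0% of all). Cd68 was called without day 1 replicate 3 (edgeR adjusted p = 0.0461). Summed microglial and neutrophil markers were higher, and endothelial, mural, choroid plexus and monocyte markers lower, in each 1 day library than in both uninjured ones. Of 12 microglial markers, 1 was called by edgeR: Itgam, the gene of the capture antigen CD11b, as higher. The monocyte sum did not follow most of its list: 5 of 6 markers tested had positive values (median log2 fold change 0.56). Of these 6, Fn1 alone was called, as lower. The part of all these marker differences in the results for lysosomal genes was not tested.

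By role, 8 of 11 glycosidases had positive log2 fold changes at 1 day, and the lowest value was −0.45 for Manba, the beta-mannosidase. Of 8 lipid hydrolases and activators, 6 were positive, with values from −0.25 for Lipa to 0.55 for Galc. The 3 sulfatases were all positive, as were Tpp1, the acid phosphatase Acp2 and Grn. The 7 membrane proteins were positive as well, with Cd68 the highest and Scarb2, a membrane protein that also serves as a sorting receptor, at 0.0039. Of the 6 pump genes, Atp6v0d1 of the membrane sector had the highest value (0.49, SE 0.21, edgeR adjusted p = 0.289), and Atp6v1h of the catalytic head the lowest (−0.0039).

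The comparison of 3 days after crush with uninjured mice showed a clearer change in a few genes. Gusb, the beta-glucuronidase that trims glycosaminoglycans, and Cd68 rose the most, by more than 2-fold. Naglu, the accessory pump subunit Atp6ap1 and Grn also rose, and none of the 38 genes was called lower. The uninjured libraries had 154 and 148 CPM of Gusb, those at 1 day 162, 182 and 177 CPM and those at 3 days 342, 375 and 361 CPM. Its 3 day libraries lay above all others, 2.38-fold over uninjured (log2 fold change 1.25, SE 0.15, edgeR adjusted p = 0.000415). Cd68 reached 794, 763 and 816 CPM at 3 days, also above all other libraries and 2.34-fold over uninjured (1.22, SE 0.16, edgeR adjusted p = 0.000676). Both were called in each of 14 alternative analyses, which included leaving out each library in turn.

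Atp6ap1 encodes an accessory subunit that helps the proton pump to assemble. It had 179 and 178 CPM without injury, 172, 292 and 210.2 CPM at 1 day and 423, 308 and 368 CPM at 3 days. The 3 day libraries were the highest, 2.05-fold over uninjured (log2 fold change 1.04, SE 0.21, edgeR adjusted p = 0.0146). The call was lost when control replicate 1 (edgeR adjusted p = 0.144), control replicate 2 (0.0987), day 3 replicate 1 (0.0721) or, of the same day, replicate 3 (0.0829) was left out.

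Naglu reached 34.3, 31.9 and 39.1 CPM at 3 days, above every library of the other groups and 2.26-fold over uninjured (log2 fold change 1.18, SE 0.30, edgeR adjusted p = 0.0436). Its call was lost without any 1 of the 5 libraries compared (edgeR adjusted p = 0.343 and 0.271 without control replicates 1 and 2, and 0.115, 0.0884 and 0.219 without day 3 replicates 1, 2 and 3). Grn reached 1043, 1014 and 1077 CPM, above both uninjured libraries but overlapping with its 1 day values, 1.54-fold over uninjured (0.63, SE 0.15, edgeR adjusted p = 0.0309). It was not called without control replicate 1 (0.423) or without day 3 replicates 1, 2 or 3 (0.097, 0.0778 and 0.175).

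In all, 5 of 38 genes (13.2%) were called higher at 3 days, where 2.49% of all tested genes were, and 0 were called lower, where 0.983% of all were. At an unadjusted p under 0.05, 14 were higher and 2 lower, and DESeq2 called 6 as higher, with Tpp1 added, and 0 as lower. DESeq2 called 1375 genes in both directions over all genes, where the main edgeR fit called 604. The count of 5 fell to 2 without control replicate 1, to 2 when either replicate 1 or replicate 3 of day 3 was left out, and to 3 without control replicate 2 or with day 3 replicate 2 left out. Calls over all genes in both directions fell as well, from 604 to 276, 449 and 172 without day 3 replicates 1, 2 and 3. In 16 genes all 3 day libraries were above the uninjured pair (20.1% of all genes), and in 4, Neu1, Asah1, Mcoln1 and Atp6v1a, all were below (19.3% of all). The median log2 fold change was 0.33, against -0.0016 over all tested genes, and 31 of 38 values were positive (81.6%, against 49.9% of all). Scaling by library size alone moved the median over all genes to −0.15, and the 38 genes then had a median of 0.18 with 24 positive values. Without day 3 replicate 1 their median was 0.19, with 28 positive values.

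Summed microglial markers overlapped between the 3 day and the uninjured libraries. Of these 12 markers, 3 fell (P2ry12, Siglech and Itgam, the gene of the capture antigen CD11b) and 0 rose by edgeR. Over all tested genes 0.983% fell and 2.49% rose. Endothelial, mural, astrocyte, border macrophage, monocyte and neutrophil markers each summed to less in every 3 day library than in both uninjured ones. The part of these differences in the results for lysosomal genes was not tested.

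**Figure D2:**
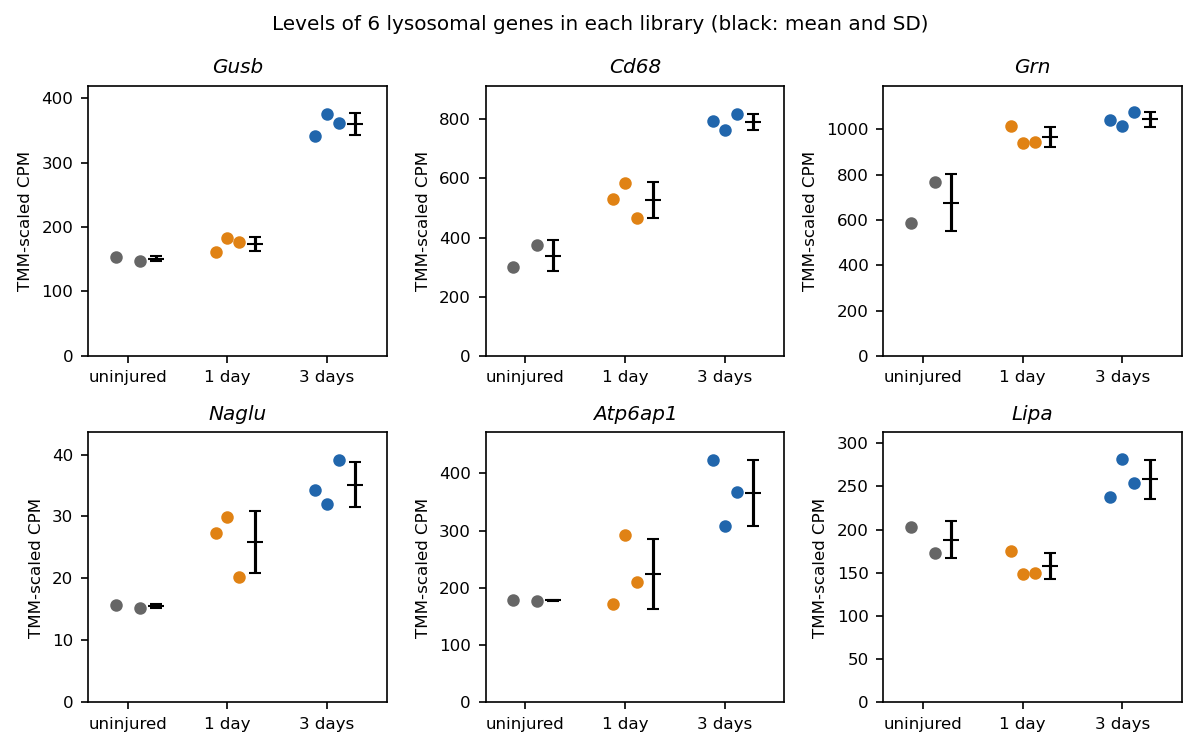
CPM (vertical axis, from 0) of the 6 genes called in at least 1 comparison, with 1 point per library in uninjured mice (n = 2), at 1 day (n = 3) and at 3 days (n = 3) after crush, and the mean and SD of each group. The 3 day points lie above all others for Gusb, Cd68, Naglu, Atp6ap1 and Lipa, while those of Grn overlap with its 1 day points.

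The other 9 glycosidases did not pass the test at 3 days. Glb1, the beta-galactosidase used to stain senescent cells, had the largest value among them (log2 fold change 0.74, SE 0.32, edgeR adjusted p = 0.259), and its 3 libraries of 38.4 to 41.9 CPM were above all libraries of the other groups. Idua, the alpha-iduronidase, had 0.67 (SE 0.25, edgeR adjusted p = 0.184), and Fuca1, the alpha-fucosidase, had 0.50 (SE 0.27). Gaa, which degrades glycogen, Hexa, which takes part in ganglioside breakdown, Manba, the alpha-mannosidase Man2b1 and the alpha-galactosidase Gla lay between 0.06 (Gla) and 0.28 (Gaa). Neu1, the sialidase, was the lone glycosidase with a negative value (−0.42, SE 0.25, edgeR adjusted p = 0.472).

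Lipid hydrolases and their activators were not called at 3 days against uninjured mice. Lipa, the acid lipase that frees cholesterol from its esters, had 203 and 173 CPM without injury, 175, 149 and 149.6 CPM at 1 day and 238, 282 and 254 CPM at 3 days. All 3 day libraries were above the rest, with a log2 fold change from uninjured of 0.45 (SE 0.16, edgeR adjusted p = 0.173). Npc2, which carries cholesterol inside the lysosome, had 0.51 and Ppt1, which removes palmitate from proteins, 0.43, each without overlap between the groups. Galc (0.55), the acid sphingomyelinase Smpd1 (0.37) and the ganglioside activator Gm2a (0.22) overlapped. Psap had 626 and 796 CPM without injury, 969, 992 and 745 CPM at 1 day and 854, 753 and 709 CPM at 3 days. The groups of Psap overlapped in every comparison (0.12 at 3 days, SE 0.17, edgeR adjusted p = 0.825). Asah1, the acid ceramidase, had the lone negative value (−0.27, SE 0.23, edgeR adjusted p = 0.649).

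Of the remaining lumenal proteins, Tpp1 came closest to a call. It had 364 ± 67.1 CPM without injury (SD, n = 2) and 556 ± 39.3 CPM at 3 days (SD, n = 3), with a log2 fold change of 0.61 (SE 0.17, edgeR adjusted p = 0.0679). It was called by DESeq2 (adjusted p = 0.0371) and, by edgeR, without day 1 replicate 2 (0.048). Acp2 had 0.14 (SE 0.21). Among the sulfatases, Arsb had 0.48 (SE 0.22, edgeR adjusted p = 0.304), and Ids, which removes sulfate from iduronic acid, had 0.015 (SE 0.20). Sgsh, at 3.13 to 8.38 CPM in the 8 libraries, had 0.18 with a standard error of 0.58, so that a change of the size seen for Grn was not detectable in it.

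Membrane proteins differed among themselves at 3 days. Beside the rise of Cd68, Lamp1 had 477 and 572 CPM without injury, 596, 669 and 531 CPM at 1 day and 833, 650.1 and 792 CPM at 3 days. Each 3 day library of Lamp1 was above both uninjured ones (log2 fold change 0.53, SE 0.16, edgeR adjusted p = 0.0992). Lamp2, which also acts as a receptor in chaperone-mediated autophagy, had 629.8 and 578 CPM, then 676, 643 and 639 CPM and then 646, 642 and 694 CPM. Its groups at 1 and 3 days lay narrowly above the uninjured pair (0.13 at 3 days, SE 0.14, edgeR adjusted p = 0.739). Cln3, a membrane protein whose loss causes a juvenile form of neuronal ceroid lipofuscinosis, had 0.39 and Scarb2 0.13. Mcoln1, the TRPML1 channel that releases calcium from lysosomes, had −0.46 (SE 0.23, edgeR adjusted p = 0.353) and Ctns, the cystine exporter, −0.29 (SE 0.26).

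Within the proton pump, the values at 3 days went both ways. Atp6v0d1 had a log2 fold change of 0.43 (SE 0.21) and Atp6v1b2, of the catalytic head, 0.42 (SE 0.19), each with all 3 day libraries above the uninjured pair. Atp6v1a, the subunit that splits ATP, had 478 ± 131 CPM without injury (SD, n = 2) and 360.2 ± 12.5 CPM at 3 days (SD, n = 3), and a log2 fold change of −0.41 (SE 0.17, edgeR adjusted p = 0.244). Atp6v1h had −0.46 (SE 0.20, edgeR adjusted p = 0.271). Atp6v0c, the proteolipid of the rotor ring, had 23.1 and 36.1 CPM, then 31.0, 41.6 and 33.4 CPM and then 23.7, 15.3 and 23.5 CPM. The uninjured and 3 day libraries of Atp6v0c overlapped (−0.50, SE 0.31, edgeR adjusted p = 0.488), and 2 pseudogenes of it are counted separately, which makes its level uncertain. Of 14 further subunits tested, 0 were called in any of the 3 comparisons by edgeR. At an unadjusted p under 0.05, 3 of these were higher at 1 day, 0 differed at 3 days and 4 were lower at 3 days than at 1 day. DESeq2 called 1 of the 14 in 1 comparison, Atp6v1c1, as lower at 3 days than at 1 day. In the same comparison edgeR called Atp6v1c1 lower without day 1 replicate 1 (adjusted p = 0.0489), and 1 other of the 14 without day 3 replicate 3.

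**Figure D3:**
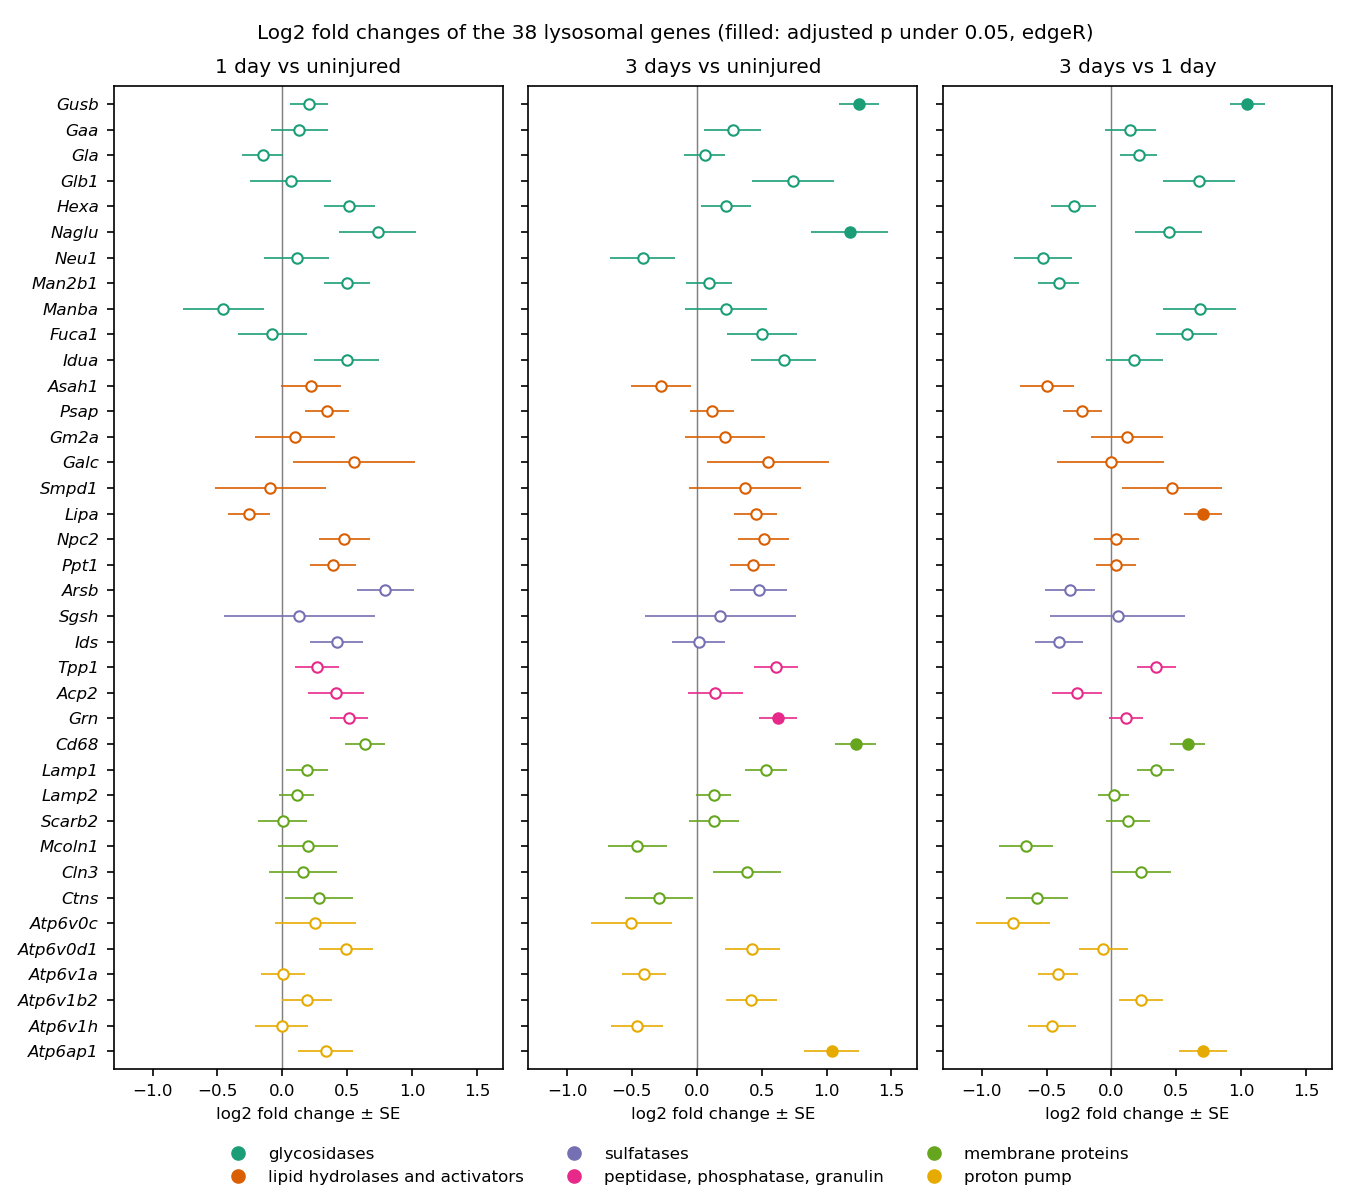
Log2 fold change with its standard error (horizontal axis) of each of the 38 genes in the 3 comparisons, coloured by role, with filled points for an edgeR adjusted p under 0.05. No point is filled at 1 day against uninjured, Gusb, Naglu, Grn, Cd68 and Atp6ap1 are filled at 3 days against uninjured, and Gusb, Lipa, Cd68 and Atp6ap1 at 3 days against 1 day.

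The comparison of 3 days with 1 day tested whether the difference from uninjured mice changed between the times. Gusb rose 2.07-fold (log2 fold change 1.05, SE 0.13, edgeR adjusted p = 0.000255) and Lipa 1.63-fold (0.71, SE 0.15, edgeR adjusted p = 0.00682). Atp6ap1 rose 1.63-fold (0.70, SE 0.19, edgeR adjusted p = 0.0256) and Cd68 1.50-fold (0.59, SE 0.14, edgeR adjusted p = 0.0139). In these 4 genes every 3 day library was above every 1 day library. Grn and Naglu, called against uninjured mice, were not called here (0.11, SE 0.13, and 0.44, SE 0.26). Gusb and Lipa were called in all 14 alternative analyses. The call of Cd68 was lost when day 1 replicate 3 (edgeR adjusted p = 0.0602), day 3 replicate 1 (0.0513) or, of the same day, replicate 3 (0.0641) was left out. That of Atp6ap1 was lost when day 1 replicate 1 (edgeR adjusted p = 0.0902), replicate 3 of day 1 (0.0806), day 3 replicate 1 (0.118) or, of the same day, replicate 3 (0.0882) was left out.

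These 4 of 38 genes (10.5%) stand against 5.24% of all tested genes called higher at 3 days than at 1 day. None of the 38 was called lower by edgeR, where 5.75% of all were. At an unadjusted p under 0.05, 9 were higher and 9 lower, and DESeq2 called 2 as lower, Mcoln1 and Atp6v0c. DESeq2 called 3120 genes in both directions over all genes, where the main edgeR fit called 1912. Without day 1 replicate 2 the count of higher genes was 6, with Glb1 and Manba added, and Asah1 was called lower. The count was 2 without day 1 replicate 3 and also when either replicate 1 or replicate 3 of day 3 was left out. Calls over all genes in both directions numbered 2362 without day 1 replicate 2 and 1533 without day 1 replicate 3. They numbered 1055 and 747 without replicates 1 and 3 of day 3. In 8 genes all 3 day libraries were above the 1 day libraries (16.1% of all genes), and in 9 all were below (13.6% of all).

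The 9 genes with all 3 day libraries below the 1 day libraries came from several roles: the glycosidases Hexa, Neu1 and Man2b1, the ceramidase Asah1, the membrane proteins Mcoln1 and Ctns, and the pump subunits Atp6v0c, Atp6v1a and Atp6v1h. Mcoln1 had the value closest to a call (log2 fold change −0.66, SE 0.21, edgeR adjusted p = 0.054), and Atp6v0c had −0.76 (SE 0.28, edgeR adjusted p = 0.102). Summed microglial, astrocyte, border macrophage and neutrophil markers were lower, and endothelial, mural, choroid plexus and monocyte markers higher, in each 3 day than in each 1 day library. Of 12 microglial markers, 5 fell by edgeR (P2ry12, Tmem119, Itgam, Sall1 and Siglech) and 0 rose, where 5.75% and 5.24% of all tested genes did. Of 6 monocyte markers tested, 2 had positive and 4 negative values (median log2 fold change −1.10), and Fn1 alone was called, as higher. The part of all these marker differences in the differences between the times was not tested.

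By group means, 23 of the 38 genes were highest at 3 days, 14 at 1 day and 1, Atp6v1h, without injury. The uninjured mean was the lowest in 26 genes (68.4%, against 32.8% of all tested genes). In 18 genes (47.4%, against 18.0% of all) the means were ordered from uninjured over 1 day to 3 days. These orders of means are a description, and in most of the genes the steps were not called.

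Summed over the 38 genes, the level was 6917 and 7779 CPM without injury, 9129, 9495 and 8413 CPM at 1 day and 9854, 9034 and 9484 CPM at 3 days. All injured libraries were above both uninjured ones, and the mean sum was 1.23-fold at 1 day and 1.29-fold at 3 days that of uninjured mice. Membrane proteins summed to 1917 and 2087 CPM without injury, 2186 to 2498 CPM at 1 day and 2513 to 2916 CPM at 3 days, with no overlap between the 3 groups. Tpp1, Acp2 and Grn together showed the same order without overlap, at 989 to 1296, 1501 to 1575 and 1659 to 1801 CPM. Among the membrane proteins, the mean rose most from uninjured to 3 days in Cd68 (339 to 791 CPM) and Lamp1 (525 to 758 CPM). Means of Lamp2, Scarb2 and Cln3 rose less, and those of Mcoln1 and Ctns were lower at 3 days. Sulfatases were at 440.2 to 476 CPM without injury, 520.1 to 792 CPM at 1 day and 467 to 565 CPM at 3 days. The 6 pump genes summed to between 863 and 1137 CPM in all libraries, with overlap between all groups.

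**Figure D4:**
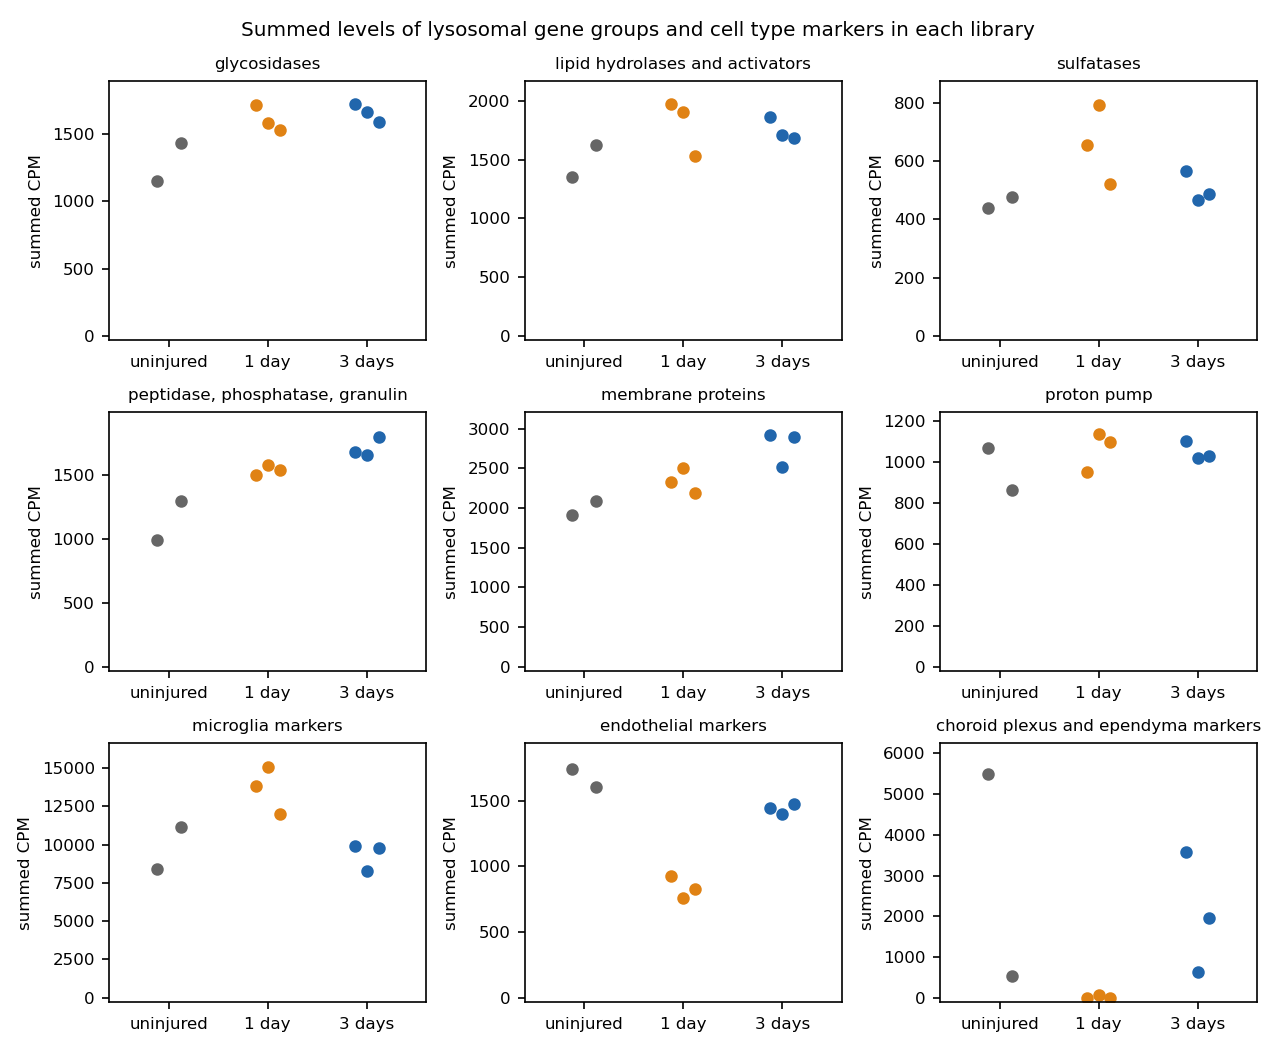
Summed CPM per library (vertical axes) of the 6 roles among the 38 genes and of microglial, endothelial and choroid plexus markers, in uninjured mice (n = 2), at 1 day (n = 3) and at 3 days (n = 3) after crush. The sum over membrane proteins, of which Cd68 and Lamp1 rose the most, steps up over the groups. Pump genes overlap, microglial markers are highest at 1 day, and choroid plexus markers are at most 56.7 CPM at 1 day.

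Set beside the promoter letters shown above, 1 of the 10 genes with TCACGTG was called at 3 days against uninjured mice (Naglu), with a median log2 fold change of 0.33 over the 10. Of the 25 genes whose windows lack it, 4 were called (Gusb, Grn, Cd68 and Atp6ap1), and the median was 0.37. Lamp1, with 4 copies, had 0.53 and Mcoln1, with 2, had −0.46. The count of calls in each class is too small to compare them.

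The factors that bind this element were measured too. Of the 4 MiT/TFE genes, 0 were called in any comparison by edgeR as fitted to all libraries (at an unadjusted p under 0.05, 1 was higher at 1 day, 1 was higher and 1 lower at 3 days against uninjured, and 1 was higher and 2 lower at 3 days against 1 day). By edgeR, Tfe3 was called at 1 day with no filter on low counts (adjusted p = 0.0473), and Tfec at 3 days against uninjured without day 1 replicate 1 (0.0281). DESeq2 called Tfe3 higher at 1 day, Tfec higher at 3 days against uninjured, and Tfe3 and Tfeb lower at 3 days than at 1 day. Tfe3 had 116.7 ± 0.965 CPM without injury (SD, n = 2), 201 ± 25.1 CPM at 1 day (SD, n = 3) and 141 ± 28.1 CPM at 3 days (SD, n = 3), with a log2 fold change at 1 day of 0.78 (SE 0.20, edgeR adjusted p = 0.0571). Tfeb had −0.86 at 3 days (SE 0.38, edgeR adjusted p = 0.277), Mitf 0.07 and Tfec, which was scarce at 2.27 ± 0.948 CPM without injury, 2.43 (SE 0.76, edgeR adjusted p = 0.103).

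Most soluble hydrolases reach the lysosome by a mannose phosphate tag, and the gene for the enzyme that begins this tag, Gnptab, rose at 3 days. It had 56.1 ± 13.5 CPM without injury (SD, n = 2), 55.1 ± 1.19 CPM at 1 day (SD, n = 3) and 167 ± 18.8 CPM at 3 days (SD, n = 3). Its log2 fold change was 1.57 from uninjured (SE 0.21, edgeR adjusted p = 0.000729) and 1.60 from 1 day (SE 0.18, edgeR adjusted p = 0.000109). Igf2r, a receptor for the tag, rose from 20.6 ± 9.19 CPM at 1 day to 75.9 ± 5.72 CPM at 3 days (1.88, SE 0.29, edgeR adjusted p = 0.00103), and had 37.2 ± 7.60 CPM without injury. Gnptab was the 1 gene of 16 in this sorting list to be called at 3 days against uninjured mice, and it and Igf2r were the 2 called against 1 day. Over all tested genes, 2.49% were called higher in the first of these comparisons and 5.24% in the second. The calls of Gnptab in both comparisons, and of Igf2r against 1 day, held under all 14 alternatives. DESeq2 called 4 of the 16 as higher at 3 days against uninjured mice, with Cln6, Igf2r and Nagpa added. By edgeR, Igf2r and Nagpa were also called there without day 1 replicate 2 (adjusted p = 0.0434 and 0.0477) or replicate 3 (0.0429 and 0.0471). Against 1 day, Vps26a was called lower by DESeq2. It was also called by edgeR with no filter, with the replicate block, and without replicate 2 of day 1 or of day 3.

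Among 30 further hydrolases and cofactors, 3 rose and 0 fell at 3 days against uninjured mice, where 2.49% and 0.983% of all tested genes did. Galns, a sulfatase of keratan and chondroitin sulfate, rose to 30.2 ± 6.99 CPM from 5.33 ± 0.694 CPM in uninjured mice (a log2 fold change of 2.50, SE 0.49, edgeR adjusted p = 0.0105). Pld3, a lysosomal nuclease, rose as well (0.77, SE 0.20, edgeR adjusted p = 0.0492). Between 1 and 3 days Aga, which cuts asparagine from glycans, rose (1.34, SE 0.36, edgeR adjusted p = 0.0273). The call of Galns was lost without control replicate 1 (0.118), control replicate 2 (0.109) or day 3 replicate 3 (0.0785). That of Pld3 was lost without any 1 of the 5 libraries compared, with an adjusted p up to 0.526 without control replicate 1, and also without day 1 replicate 3 (0.0574). The call of Pld3 was lost, too, with DESeq2's size factors (0.0615), library size scaling (0.145), no filter (0.0854), the replicate block (0.0724) and without mitochondrially encoded genes (0.0519). Aga was lost without day 1 replicate 1 (0.0631) or without replicate 1, 2 or 3 of day 3 (0.0892, 0.0645 and 0.0986).

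Among 22 further lysosomal membrane proteins tested, Slc15a3, a peptide and histidine transporter, rose at 1 day (log2 fold change 0.78, SE 0.18, edgeR adjusted p = 0.0391). At 3 days against uninjured mice Cd63, a tetraspanin of late endosomes and lysosomes, rose from 60.4 ± 10.9 to 128 ± 22.9 CPM (1.09, SE 0.21, edgeR adjusted p = 0.0105). Ostm1, the partner of the chloride transporter encoded by Clcn7, fell from 73.5 ± 9.98 to 33.2 ± 5.12 CPM (−1.14, SE 0.26, edgeR adjusted p = 0.0279). Against 1 day, 7 of the 22 fell and 0 rose, where 5.75% and 5.24% of all tested genes did. They included Slc29a3, a nucleoside transporter (−0.91, SE 0.14, edgeR adjusted p = 0.000787), the cation channel Tpcn1 (−0.86, SE 0.19, edgeR adjusted p = 0.00933), Ostm1 (−1.07, SE 0.24, edgeR adjusted p = 0.0115) and Clcn7 (−0.83, SE 0.20, edgeR adjusted p = 0.0154). The count of 7 was 6 without day 1 replicate 3, and 4 without day 1 replicate 1 or without day 3 replicate 1. It was 3 when replicate 2 or replicate 3 of day 3 was left out. Cd63 was called higher against 1 day by DESeq2 (adjusted p = 0.0365) and, by edgeR, without mitochondrially encoded genes (0.0455). Slc29a3 and Tpcn1 were called under all 14 alternatives. Clcn7 was lost without replicate 1, 2 or 3 of day 3 (0.0582, 0.0507 and 0.065), and Ostm1 against 1 day without replicate 1 or 3 of day 3 (0.0517 and 0.074). Against uninjured mice Ostm1 was lost without control replicates 1 or 2 (0.291 and 0.0779) or replicates 1 or 3 of day 3 (0.104 and 0.139) and with the replicate block (0.0666), and Cd63 without control replicate 1 (0.204) or replicates 1 or 2 of day 3 (0.0507 and 0.0502). Slc15a3 at 1 day was lost without control replicates 1 or 2 (0.522 and 0.0638), replicates 1 or 3 of day 1 (0.0738 and 0.0865) or replicates 1 or 3 of day 3 (0.0629 and 0.0964). It was also lost with the replicate block (0.081), library size scaling (0.137) and without mitochondrially encoded genes (0.0573).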

How the data were processed

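Reads were aligned and counted before deposit: STAR, HTSeq and FastQC are listed, with mm9 as the genome build and no versions, per the submitters' processing notes. The strand setting of the counting is not given in the sources used here. RNA was extracted with a column kit and amplified linearly, per the labels' protocols. The deposited values are raw counts per Ensembl gene for 8 libraries, and 25925 of 26062 identifiers had a symbol (0.127% of counts did not). The 38 genes, the lists beside them and the markers were chosen with earlier results of these data known. Members could all be named, with values per library for those called and for Lamp1, Lamp2, Grn, Psap and Atp6v0c. From each other list, up to 3 genes with the smallest p in a comparison, and the MiT/TFE genes, could be named; some genes of these lists are not reported here.

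Counts were fitted with edgeR 4.0.16 (R 4.3.3; robust quasi-likelihood F-test, two-sided, TMM, filterByExpr) over all 8 libraries in 3 groups, which share 1 estimate of spread. All 38 genes were among the 17390 tested, p-values were adjusted by Benjamini-Hochberg over these, and a gene was called under 0.05. Standard errors are the log2 fold change divided by the square root of F. The fit was tested on simulated data. Alternatives were DESeq2 1.42.0, other scalings, no filter, a replicate block and leaving out each library. Replicate libraries differed by more than counting noise (chi-square per degree of freedom 31.4 to 64.8). Exon lengths and overlaps came from a GRCm38 annotation, not the build of the files, so no gene coordinates from it are given. Of the 38 genes, 10 share exonic bases with another counted gene, over 10% in Sgsh (21.6%), Hexa (12.8%) and Acp2 (12.6%). Arsb shares 39.9% of its exonic bases, and Galc 2.69%, with annotated genes on the other strand that are not counted. Glb1 alone shares them on its own strand (5.49%, with Tmppe), and among called genes Grn alone shares any (1.96%).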

Additional observations from a re-analysis of the deposited data

Results flagged for a closer look

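For 4 of the 38 genes the change from uninjured mice differed between the times, tested directly as 3 days against 1 day in the edgeR fit with all genes. The log2 difference was 1.05 for Gusb, 0.71 for Lipa, 0.70 for Atp6ap1 and 0.59 for Cd68, each higher at 3 days. No group had the 4 libraries needed to look for single libraries that stand apart.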

How the results depend on the processing

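Under 14 alternatives, 1596 values of the 38 genes were recomputed: 26 calls were lost, 11 were gained, 0 called values changed sign, and 89 uncalled values did. At 1 day against uninjured, where 0 genes were called higher, DESeq2 called 2, the fit with a replicate block 1 (Arsb, adjusted p = 0.0379), and leaving out 1 library gave 0 to 1. At 3 days against uninjured the 5 higher genes became 3 with scaling by library size alone and 3 with the replicate block, and 2 to 6 on leaving out 1 library. At 3 days against 1 day the 4 higher genes became 2 to 6 on leaving out 1 library, and the 0 lower genes became 2 by DESeq2 and 0 to 1 on leaving out 1 library. Counts of calls over all genes, given above for several of these fits, moved as well. The cause of these shifts was not tested, except that fewer libraries enter the fits that leave 1 out, where a lone uninjured library is assumed to vary like the other groups.

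Same-numbered libraries did not deviate together (correlations −0.06 to 0.09 over 7 pairs). This check cannot exclude that the numbers pair libraries, because groups hold 2 or 3 libraries and deviations of the 2 uninjured ones mirror each other. Under the replicate block Naglu had an edgeR adjusted p of 0.0879 and Grn 0.0708. Naglu was also lost with DESeq2's size factors (0.0509), library size scaling (0.0789) and no filter (0.058), and Grn with library size scaling (0.161). Leaving out mitochondrially encoded genes, chosen after seeing the data, moved no count of called genes among the 38. With 2 uninjured libraries, small differences may go uncalled, and the count of 39 for Sgsh limits that gene most. The coefficient of variation between libraries that edgeR fitted in common to all tested genes was 51.1%, which is not the spread of the 38 genes. Their standard errors at 3 days against uninjured mice ran from 0.14 (Lamp2) to 0.58 (Sgsh).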

Other observations

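The lysosomal surface is also where the Ragulator, Rag and mTORC1 proteins sense nutrients. Of 14 such genes tested, Rptor, the scaffold of mTORC1, had 144 ± 14.3 CPM in uninjured mice (SD, n = 2) and rose at 1 day to 248 ± 26.7 CPM (SD, n = 3), with a log2 fold change of 0.78 (SE 0.17, edgeR adjusted p = 0.0336). It fell between 1 and 3 days, to 117 ± 10.7 CPM (SD, n = 3; −1.08, SE 0.15, edgeR adjusted p = 0.000498). Fnip1 (−0.87, SE 0.16, edgeR adjusted p = 0.0029) and Flcn (−0.79, SE 0.17, edgeR adjusted p = 0.00893), which encode partners in a complex that acts on the Rag proteins, and Lamtor3 of the Ragulator (−0.76, SE 0.22, edgeR adjusted p = 0.043) fell in the same step. Rptor, Fnip1 and, except without day 3 replicate 3 (0.0625), Flcn were called in this step under all 14 alternatives. Lamtor3 was lost in 8 of them, which were every omission of a library save day 1 replicate 3, and the omission of mitochondrially encoded genes. Lamtor5, also of the Ragulator, rose (1.19, SE 0.31, edgeR adjusted p = 0.0255). None of the 14 was called by the main edgeR fit at 3 days against uninjured mice, where an unadjusted p under 0.05 was reached by 3 in each direction. DESeq2 called Flcn and Rragd as lower there. So did edgeR with DESeq2's size factors, with library size scaling, with no filter and without day 1 replicate 2. Flcn was also called lower by edgeR without day 3 replicate 2, and Rragd without day 1 replicate 1. The rise of Rptor at 1 day was called in 6 of the 14 alternatives and lost without control replicates 1 or 2 (0.483 and 0.0755), replicates 1 or 2 of day 1 (0.0874 and 0.0712) or replicates 1, 2 or 3 of day 3 (0.0601, 0.0607 and 0.0726), and with scaling by library size alone (0.113). Lamtor5 was lost without day 1 replicate 1 (0.0612) or replicates 1, 2 or 3 of day 3 (0.0771, 0.0551 and 0.113).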
